A study of Homo sapiens with 18 samples.

Results

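The 9 genes described here build, load or regulate MHC class I, the surface complex that shows peptides from inside a cell to CD8+ T cells. They were taken by symbol from a count table of 28395 genes: the heavy chains HLA-B, HLA-C, HLA-E and HLA-F, the light chain B2M, the peptide transporter subunits TAP1 and TAP2, the loading chaperone TAPBP and the transactivator NLRC5. All 9 passed the filter on low counts. RNA was sequenced from H929, MM1S and OPM2, which are established lines of human multiple myeloma, a cancer of plasma cells, in 18 libraries that formed 9 groups of 2. In each line, a CRISPR-Cas9 knockout of IKZF1, which encodes the transcription factor Ikaros, was compared with an empty vector. OPM2 also had a knockout of IKZF3, which encodes the related factor Aiolos. Knockout and empty vector cells alike received doxycycline, the inducer of the guide RNA, at 1 µg/mL, and all cells were cultured for 72 h before live cells were sorted. Further OPM2 cells were left untreated or received lenalidomide at 10 µM, a drug that sends Ikaros and Aiolos to degradation through cereblon. The sources used here do not say whether a knockout group is a clone or a mixed culture. Nothing states that the 2 libraries of a group came from separate cultures, so p-values measure only the spread between these libraries, which may be technical. The count columns of each knockout pair carry different designations, while those of the empty vector and untreated pairs are plainly numbered. What the designations mean is not stated.

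A class I molecule is a heavy chain paired with beta-2-microglobulin, the product of B2M, and it is stable at the surface only with a peptide bound. Proteasomes cut the peptides, the TAP1-TAP2 heterodimer pumps them into the endoplasmic reticulum, and tapasin, the product of TAPBP, bridges the transporter to heavy chains that wait for a peptide. HLA-B and HLA-C present peptides to CD8+ T cells, HLA-E shows leader peptides of other class I chains to the NKG2A receptor of natural killer cells, and HLA-F is a further nonclassical chain. Interferons raise the pathway through STAT and IRF factors. NLRC5 acts at the X and Y boxes of class I promoters together with RFX, CREB and NF-Y factors.

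The promoters of HLA-B, HLA-F, B2M and TAP1 are shown because these 4 genes carry the comparisons below. Their matches to the IRF, NF-kB and X2-Y letter patterns described below were not all alike. HLA-B and B2M matched every kind, TAP1 lacked the X2-Y arrangement and HLA-F matched only an IRF pattern. RefSeq promoter windows (GRCh38.p14, 250 bases before to 50 after the start) matched 7 of the 9 members, HLA-E and NLRC5 being the others. Gene positions given below are from the same source. Sequences are 5′ to 3′ along the gene, and capitals mark, where present, an NF-kB consensus, an IRF element (GAAANNGAA or GAANNGAAA, on either strand) and the X2 box letters TGACG followed by the Y box letters ATTGG 15 to 25 bases later. The 2 IRF patterns can overlap each other. The windows are chr6:31357130-31357429 on the minus strand, chr6:29723184-29723483 on the plus strand, chr15:44711267-44711566 on the plus strand and chr6:32853655-32853954 on the minus strand (the first of its 2 listed starts).
HLA-B: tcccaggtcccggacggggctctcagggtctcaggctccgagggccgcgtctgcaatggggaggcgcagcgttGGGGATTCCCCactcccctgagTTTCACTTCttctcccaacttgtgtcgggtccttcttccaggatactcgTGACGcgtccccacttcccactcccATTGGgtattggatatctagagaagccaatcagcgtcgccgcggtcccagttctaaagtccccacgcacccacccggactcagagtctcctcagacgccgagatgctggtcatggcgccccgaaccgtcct
HLA-F: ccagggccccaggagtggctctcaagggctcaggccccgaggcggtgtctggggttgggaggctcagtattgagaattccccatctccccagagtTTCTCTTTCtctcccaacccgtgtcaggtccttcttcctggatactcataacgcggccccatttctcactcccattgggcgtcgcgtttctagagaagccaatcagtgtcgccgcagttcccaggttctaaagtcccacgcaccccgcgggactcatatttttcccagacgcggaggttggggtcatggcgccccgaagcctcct
B2M: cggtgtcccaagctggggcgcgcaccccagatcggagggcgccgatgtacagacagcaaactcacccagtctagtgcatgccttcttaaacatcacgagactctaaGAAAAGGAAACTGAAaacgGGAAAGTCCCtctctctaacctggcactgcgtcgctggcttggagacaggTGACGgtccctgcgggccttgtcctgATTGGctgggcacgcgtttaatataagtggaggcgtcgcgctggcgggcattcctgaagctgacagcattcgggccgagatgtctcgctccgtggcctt
TAP1: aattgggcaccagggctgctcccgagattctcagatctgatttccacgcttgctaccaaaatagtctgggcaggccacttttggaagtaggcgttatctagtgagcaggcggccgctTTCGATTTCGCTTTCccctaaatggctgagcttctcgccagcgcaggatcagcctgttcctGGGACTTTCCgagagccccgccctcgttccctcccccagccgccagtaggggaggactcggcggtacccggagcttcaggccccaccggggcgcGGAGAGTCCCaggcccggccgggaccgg
An IRF pattern was found in the windows of all 7 matched members, against 14.5% of 35116 promoters of this length. GAAANNGAA alone was in 8.11% of them and GAANNGAAA in 7.66%. The X2-Y arrangement was found in HLA-B, HLA-C and B2M, against 0.447% of all promoters, and the NF-kB consensus in 5 members (HLA-B, HLA-C, B2M, TAP1 and TAPBP), against 11.3%. A match describes letters and is no proof of a binding site.

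Totals ran from 11.8 to 24.2 M counts per library. The 2 OPM2 empty vector libraries stood apart from each other: 797 genes differed more than 2-fold between them, against 1 to 250 in the other groups, and replicate 1 had the lowest TMM factor, 0.860. Every OPM2 knockout result below uses these libraries, and values with the untreated OPM2 cells as control are given for the genes whose call or direction they change. The labels name no vector and no doxycycline for the untreated cells. A difference from them can therefore hold effects of vector or doxycycline beside that of the knockout, which cannot be told apart. Between the 2 controls, 35.4% of all tested genes were called. That share depends on the fit, in which all groups share 1 estimate of spread. With the 4 control libraries fitted alone 0 genes were called, and 1705 with their replicate numbers added to that fit. The shares for the OPM2 knockouts below depend on it likewise. Fitted alone, 113 genes were called for the IKZF1 and 54 for the IKZF3 knockout against the empty vector. IKZF1 RNA was not lower in the cells labelled as its knockout (128 and 120.2 CPM with empty vector and 124 and 188 in the knockout of H929), nor IKZF3 RNA in its OPM2 knockout (44.0 and 50.3 and then 69.3 and 66.6), so the RNA level does not check these labels. CPM are counts scaled to a common library size with TMM factors. Plasma cell markers were high in all groups, with 8 genes summing to 7211 to 22327 CPM. Of the 8 myeloid markers, CD68, a lysosomal gene, made nearly all of a sum that was higher in every knockout and lenalidomide group (38.4 to 40.5 in H929 empty vector, 180.7 to 248.9 in its knockout), while FCGR3A was at 0 in all libraries. In MM1S, CD14 went from 0.117 and 0.264 CPM with empty vector to 1.77 and 2.48 in the knockout. S100A9 went from 0.763 and 1.06 to 2.04 and 3.81 there. In that comparison 3 of the 4 tested myeloid markers were called higher, against 28.3% of all genes called. Markers of T and natural killer cells summed to at most 50.9 CPM, of mature B cells to 1.62 and of stroma to 2.32. The part of CD68 and these markers in the results was not tested.

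Loss of IKZF1 went with higher class I RNA in H929 and MM1S, and the lines differed in the transporter genes. In H929, 8 of the 9 members were called higher and none lower (edgeR quasi-likelihood test, Benjamini-Hochberg adjusted p below 0.05 over 14522 genes), where 10.5% of all tested genes were called. In MM1S, 7 were higher and none lower, against 28.3% of all genes. HLA-E was the member not called in H929, and TAP1 and TAP2 were those not called in MM1S. The median log2 fold change of the 9 was 0.72 in H929 and 0.71 in MM1S, against -0.03 and 0.00 over all tested genes. The H929 count fell without either empty vector library or without knockout library a, as did the number of all genes called. In MM1S most calls stayed whichever single library was left out. In bulk RNA, a change in every cell and a change in a share of the cells cannot be told apart.

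In OPM2 the members moved less and not together. The IKZF1 knockout had TAP1 higher and TAP2 lower, against 36.3% of all genes called. The IKZF3 knockout had B2M, TAP1 and TAPBP higher and TAP2 lower, against 36.9%; it shares its control libraries with the IKZF1 knockout. Lenalidomide had HLA-C, B2M, TAP1 and NLRC5 higher and none lower, against 10.4%. All 4 calls ended when any 1 of its 4 libraries was left out, where fewer of all genes were called too. The medians were 0.04, 0.31 and 0.58 in these 3 comparisons, against 0.00, -0.03 and 0.00 over all genes. Both knockout counts changed when single libraries were left out. The IKZF1 knockout calls were all lower without empty vector replicate 2, and the IKZF3 knockout calls all higher without replicate 1. The number of all genes called rose without replicate 2 and fell without any other of these libraries, so the changed counts were not read as results about the members.

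**Figure D1:**
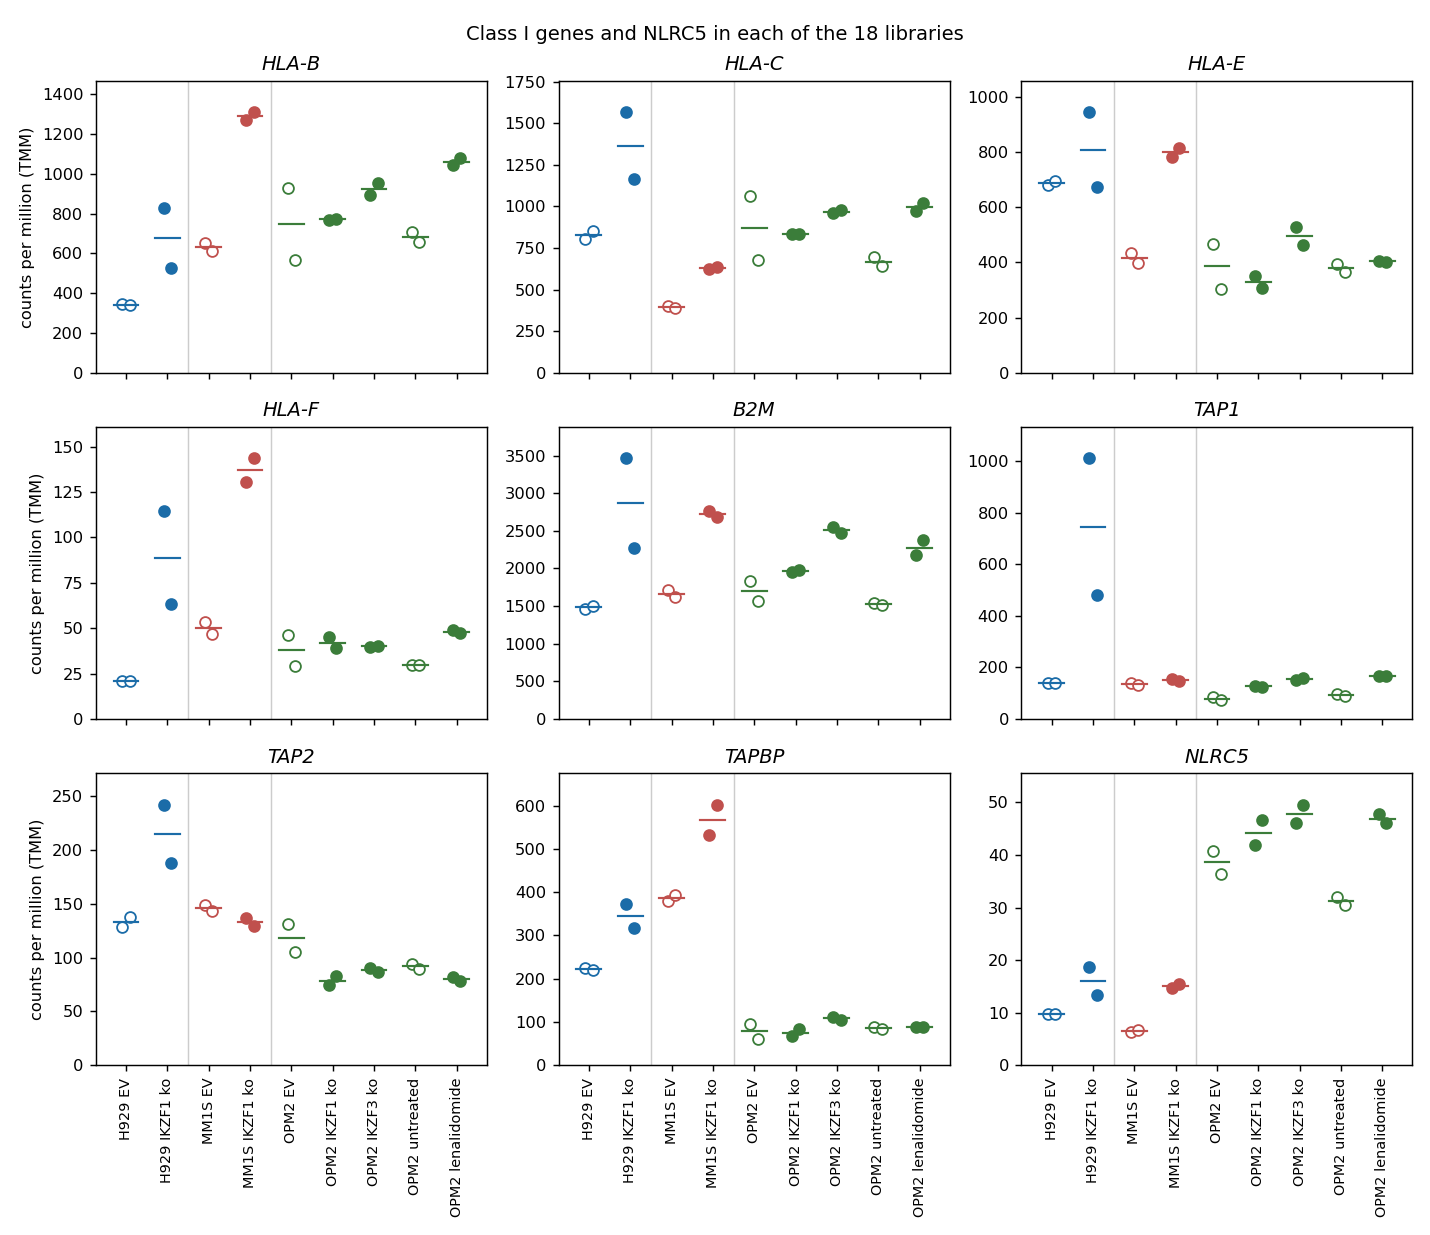
CPM (linear axes) of each member in the 18 libraries; each circle is a library, open for controls and filled for knockout or lenalidomide, the bar is the mean of 2, and EV is empty vector and ko knockout. TAP1 reached 1009.8 and 481 in the H929 knockout libraries, above every other library, while TAPBP and NLRC5 varied most between lines.

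The classical heavy chains HLA-B (Entrez gene 3106, chr6:31353875-31357179) and HLA-C (Entrez gene 3107, chr6:31268749-31272092) rose in both H929 and MM1S. HLA-B was at 343 and 340.1 CPM in the H929 empty vector libraries and 829 and 527 in the knockout (0.99 ± 0.20, adjusted p = 0.00502; log2 fold change ± SE here and throughout). In MM1S it went from 649.7 and 610.4 to 1271 and 1308 (1.03 ± 0.20, adjusted p = 0.00149). Both knockout libraries lay above both controls in each line, and MM1S knockout cells held the highest HLA-B level of the 9 groups. HLA-C rose from 806 and 851 to 1566 and 1162 in H929 (0.72 ± 0.17, adjusted p = 0.0129). In MM1S, the line with the least HLA-C, it rose from 404 and 387 to 625 and 636 (0.67 ± 0.17, adjusted p = 0.00857). The H929 calls of both genes ended without empty vector replicate 1, without replicate 2 or without knockout library a, with HLA-B at 0.63, adjusted p = 0.0906 without the last. The MM1S call of HLA-C ended without empty vector replicate 2 (0.63, adjusted p = 0.0659) or knockout library b (0.66, adjusted p = 0.0503).

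In OPM2 the reading of HLA-B and HLA-C depended on how the empty vector libraries were used. The empty vector libraries held 928 and 569 CPM of HLA-B and 1060.2 and 678 of HLA-C. HLA-B was at 769 and 773 in the IKZF1 knockout, between the controls, and at 895 and 953 in the IKZF3 knockout, where 1 library lay above both. HLA-C lay between the controls in all 4 knockout libraries, at 836 and 834 and at 959.7 and 979. Neither gene was called in either knockout, with HLA-B at 0.04 ± 0.20, adjusted p = 0.914 and 0.30 ± 0.20, adjusted p = 0.252. Untreated cells had 708 and 658 of HLA-B and 693 and 643 of HLA-C. HLA-C was higher with lenalidomide, at 972 and 1021 (0.58 ± 0.17, adjusted p = 0.0434), and HLA-B stood at 1041 and 1076 without passing the test (0.63 ± 0.20, adjusted p = 0.0601). Both lenalidomide libraries were above both untreated ones for each gene, and HLA-B did pass when the OPM2 empty vector libraries were left out of the fit (0.62, adjusted p = 0.00711). With untreated cells as control and all libraries in the fit, neither gene was called in either knockout. With the empty vector pair left out besides, HLA-B was higher in the IKZF3 knockout (0.43, adjusted p = 0.0489). HLA-C was then higher in the IKZF3 knockout (0.53, adjusted p = 0.00104) and in the IKZF1 knockout (0.32, adjusted p = 0.0290, against -0.06 with the empty vector). Leaving out 1 empty vector library moved the values either way. HLA-B in the IKZF3 knockout stood at 0.73 without replicate 1, and HLA-C in the IKZF1 knockout at -0.34 without replicate 2. The empty vector itself stood at 0.38 ± 0.17 against untreated cells for HLA-C, without a call (adjusted p = 0.0964).

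Of the nonclassical chains, HLA-F (Entrez gene 3134, chr6:29723434-29738532) had the larger change. It rose 4.25-fold in H929, from 20.9 and 20.9 to 115 and 63.3 CPM (2.09 ± 0.24, adjusted p = 3.58e-05), and 2.73-fold in MM1S, from 53.7 and 46.7 to 131 and 144 (1.45 ± 0.23, adjusted p = 3.04e-04). These 2 calls held under every alternative run. In OPM2, HLA-F was at 46.5 and 29.4 with empty vector, and the IKZF1 knockout (45.1 and 39.0) and the IKZF3 knockout (39.9 and 40.2) lay between these 2 libraries. It was at 29.8 and 30.0 in untreated and 49.0 and 47.3 in lenalidomide cells, which did not pass the test (0.69 ± 0.23, adjusted p = 0.0809). It did pass, at a like fold change, with DESeq2's Wald test (adjusted p = 0.0456), without the low-count filter, with the 4 libraries fitted alone, and without either or both OPM2 empty vector libraries, which is 6 of 14 alternatives.

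HLA-E (Entrez gene 3133, chr6:30489509-30494194), the NKG2A ligand, rose in MM1S and was not called elsewhere in the main fit. MM1S values went from 434 and 397 to 781 and 815 CPM (0.94 ± 0.18, adjusted p = 0.00136), and this call held under every alternative. In H929 the knockout libraries were at 943 and 671, on either side of the controls at 679.9 and 693 (0.23 ± 0.18, adjusted p = 0.503). The difference between the 2 lines' effects was -0.71 for H929 minus MM1S and missed the threshold (95% interval -1.25 to -0.16, adjusted p = 0.0754). It passed with the OPM2 empty vector libraries left out (-0.72, adjusted p = 0.00681). In OPM2, HLA-E was at 467 and 304 with empty vector, 351 and 306 in the IKZF1 knockout and 527 and 463 in the IKZF3 knockout, with both IKZF3 libraries above both IKZF1 libraries. Untreated cells were at 395 and 364 and lenalidomide cells at 403 and 403. Over the alternatives run, the change was 0.09 to 0.74 in the IKZF3 knockout and -0.50 to 0.15 in the IKZF1 knockout. The value of -0.50 was the one without empty vector replicate 2. The IKZF3 knockout passed without the low-count filter, and against untreated cells with the empty vector pair left out.

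Reads of heavy chain genes can match several near-identical copies, and the lines carry alleles that may differ from the reference, so the split of reads among HLA genes and their differences between lines are uncertain. How such reads were counted is not stated in the labels. As a measure within libraries, the ratio of HLA-B to HLA-C counts was 0.426 and 0.399 in H929 empty vector, 1.61 and 1.58 in MM1S and 0.875 and 0.839 in OPM2. It went to 0.529 and 0.453 in the H929 knockout and 2.03 and 2.06 in the MM1S knockout. HLA-B thus gained on HLA-C in both, and the lines stayed far apart.

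B2M (Entrez gene 567, chr15:44711517-44718145), the light chain shared by all class I molecules and the most abundant member per length, rose in H929 and MM1S. H929 values went from 1457 and 1508 to 3461 and 2267 CPM (0.95 ± 0.15, adjusted p = 7.90e-04), and MM1S values from 1714 and 1618 to 2767 and 2684 (0.71 ± 0.15, adjusted p = 0.00282). Both calls held under every alternative. In OPM2 the order was untreated (1537 and 1521), empty vector (1829 and 1563), IKZF1 knockout (1947 and 1984), lenalidomide (2175 and 2378) and IKZF3 knockout (2553 and 2471). The libraries of neighbours in that order did not overlap, though empty vector against untreated was not called (0.15 ± 0.15, adjusted p = 0.471). The authors' deposited log2 FPKM did not hold that order. There the empty vector (9.73) was below untreated (9.91), and lenalidomide (10.43 and 10.58) overlapped the IKZF1 knockout (10.37 and 10.49). B2M was called in the IKZF3 knockout (0.57 ± 0.15, adjusted p = 0.0102) and with lenalidomide (0.57 ± 0.15, adjusted p = 0.0251) but not in the IKZF1 knockout (0.21 ± 0.15, adjusted p = 0.288). With untreated cells as control, the IKZF3 value was 0.72, adjusted p = 0.00873.

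The transporter subunits were the members whose change differed between H929 and MM1S. TAP1 (Entrez gene 6890, chr6:32845209-32853704) was at 138 and 138 CPM in the H929 controls and at 1009.8 and 481 in the knockout, a 5.39-fold rise (2.43 ± 0.23, adjusted p = 7.00e-06). TAP2 (Entrez gene 6891, chr6:32821831-32838739), its partner in the heterodimer, rose 1.62-fold, from 129 and 137 to 242 and 188 (0.69 ± 0.13, adjusted p = 0.00361). Knockout library a exceeded library b for both genes, and for all 9 members in H929. In MM1S neither moved past the test: TAP1 was at 142 and 130.001 and then 155 and 147 (0.15 ± 0.22, adjusted p = 0.666), and TAP2 at 149 and 143 and then 136 and 129 (-0.14 ± 0.13, adjusted p = 0.498). The 95% intervals of the MM1S changes were -0.32 to 0.63 and -0.43 to 0.15. The TAP1 call in H929 held under every alternative, and the TAP2 call ended without empty vector replicate 1 (0.65, adjusted p = 0.0559) or knockout library a (0.50, adjusted p = 0.0626).

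In OPM2 TAP1 was higher after every perturbation and TAP2 was not. TAP1 was at 84.4 and 72.8 with empty vector, 129.7 and 124 in the IKZF1 knockout (0.69 ± 0.23, adjusted p = 0.0277) and 152 and 158 in the IKZF3 knockout (0.98 ± 0.23, adjusted p = 0.00475). It was at 96.5 and 90.4 in untreated and 165 and 169 in lenalidomide cells (0.84 ± 0.23, adjusted p = 0.0278). No treated library overlapped its control. Against untreated cells, however, the TAP1 change was 0.44, adjusted p = 0.285 in the IKZF1 knockout and 0.73, adjusted p = 0.0598 in the IKZF3 knockout, neither past the threshold. The IKZF1 knockout call ended when any 1 of its 4 libraries was left out, and the IKZF3 knockout call without empty vector replicate 2. Both ended with the compared libraries fitted alone. The lenalidomide call also ended without the OPM2 empty vector libraries (0.83, adjusted p = 0.0535). TAP2 was at 131 and 105 with empty vector against 74.3 and 83.2 (-0.59 ± 0.14, adjusted p = 0.00502) and 90.3 and 86.6 (-0.42 ± 0.14, adjusted p = 0.0256) in the knockouts, which were both called lower. Untreated cells, at 94.0 and 89.8, lay below the empty vector too, and against them the changes were -0.22 and -0.06 and neither was called.

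The ratio of TAP1 to TAP2 counts in a library does not depend on how libraries are scaled, and it set the perturbed OPM2 cells apart from both kinds of control (a measure chosen after the values were seen, with no test). It was 0.642 and 0.693 in OPM2 empty vector and 1.03 and 1.01 in untreated libraries. It stood at 1.74 and 1.49 in IKZF1 knockout libraries, 1.68 and 1.83 in those of IKZF3 and 2.02 and 2.15 with lenalidomide. Here the 2 empty vector libraries were close together. In H929 the ratio went from 1.07 and 1.01 to 4.17 and 2.56, and in MM1S from 0.951 and 0.907 to 1.14 and 1.14. In all 5 comparisons both perturbed libraries exceeded both controls, by the smallest margin in MM1S.

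**Figure D2:**
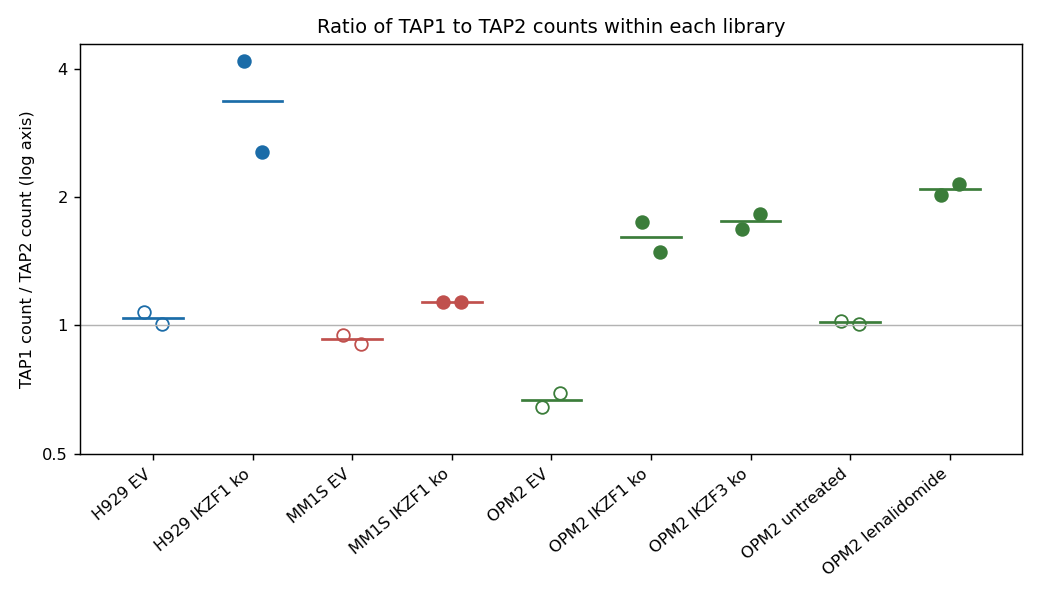
Ratio of TAP1 to TAP2 counts (log axis) in each library, 2 circles per group with the mean as a bar, open for controls and filled for knockout or lenalidomide. The perturbed OPM2 libraries lie between 1.49 and 2.15, above all 4 OPM2 control libraries.

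TAPBP (Entrez gene 6892, chr6:33299694-33314078), which encodes tapasin, differed more between lines than within them. It was at 224 and 219.7 CPM in H929 empty vector, 378 and 394 in MM1S and 94.7 and 61.2 in OPM2. It rose to 372 and 317 in the H929 knockout (0.64 ± 0.17, adjusted p = 0.0236) and to 532 and 602 in the MM1S knockout (0.55 ± 0.17, adjusted p = 0.0218), with no overlap in either line. Both calls ended without some single libraries: either H929 empty vector library or knockout a in H929 (adjusted p up to 0.187), and either empty vector library or knockout b in MM1S (up to 0.154). In OPM2 it was called higher in the IKZF3 knockout, at 112 and 104 (0.47 ± 0.17, adjusted p = 0.0391). The IKZF1 knockout, at 67.6 and 83.3, overlapped its control (-0.04 ± 0.17, adjusted p = 0.888), and lenalidomide cells, at 88.1 and 89.2, overlapped untreated cells at 89.1 and 82.8. Against untreated cells, with all libraries in the fit, the IKZF3 knockout value of TAPBP was 0.33, adjusted p = 0.275. It was called higher against them when the empty vector pair was left out of the fit.

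NLRC5 (Entrez gene 84166, chr16:56989557-57083520), the class I transactivator, was the least abundant member per length, and the lines ranked differently for it than for TAPBP. It was lowest in MM1S empty vector (6.22 and 6.73 CPM), then H929 (9.74 and 9.73), and highest in OPM2 (32.0 and 30.4 untreated, 40.8 and 36.5 with empty vector). It rose in H929 and MM1S. After IKZF1 knockout it reached 14.7 and 15.4 in MM1S (1.21 ± 0.16, adjusted p = 6.65e-05) and 18.7 and 13.3 in H929 (0.72 ± 0.15, adjusted p = 0.00696). The MM1S call held under every alternative. The H929 call ended without either empty vector library or knockout a, and when the 4 H929 libraries were fitted alone (0.75, adjusted p = 0.0552). NLRC5 was also higher with lenalidomide, at 47.7 and 46.0 (0.59 ± 0.14, adjusted p = 0.0147). The OPM2 knockouts, at 41.8 and 46.7 and 46.2 and 49.6, were above the empty vector but not called (0.20 ± 0.14, adjusted p = 0.287 and 0.31 ± 0.14, adjusted p = 0.0922). Against untreated cells both were called (0.50, adjusted p = 0.0403 and 0.62, adjusted p = 0.0130). The empty vector also stood above untreated cells for NLRC5, without a call (0.31 ± 0.14, adjusted p = 0.103). Vector, doxycycline and knockout cannot be told apart in those 2 calls.

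**Figure D3:**
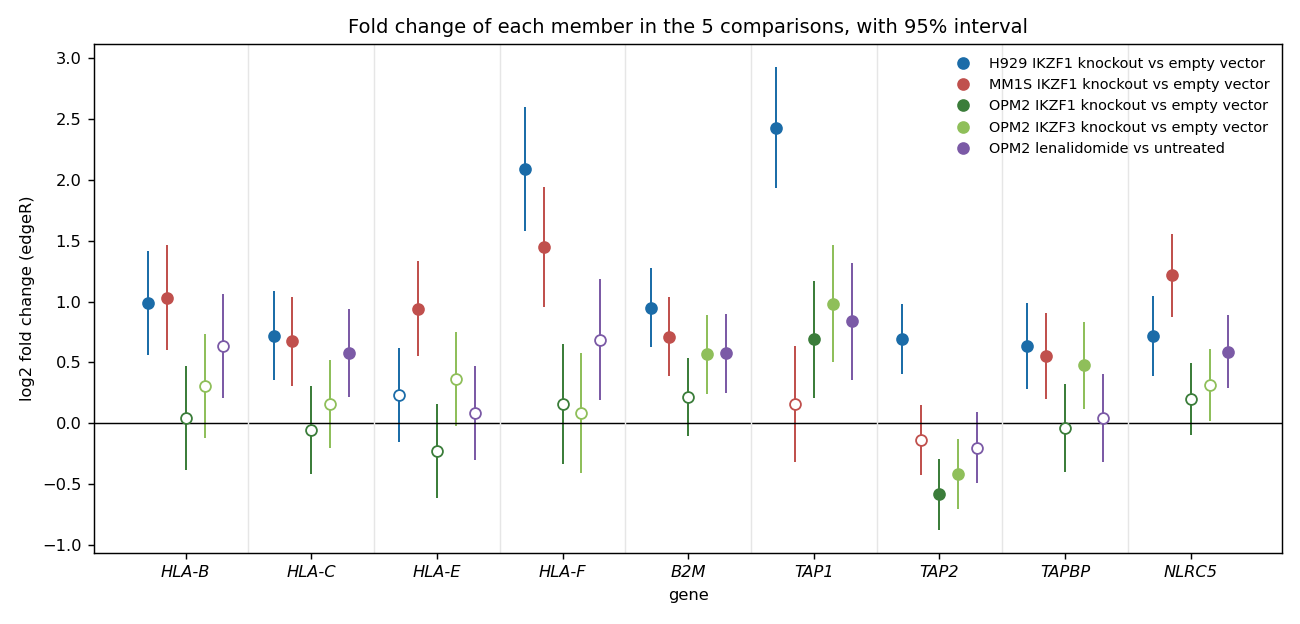
Log2 fold change of each member in the 5 comparisons with its 95% interval (edgeR); filled circles passed an adjusted p of 0.05 and open ones did not, and each colour is a comparison named in the key. TAP1 separates H929 (2.43) from MM1S (0.15), and TAP2 is the only member with called decreases, both against the OPM2 empty vector.

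The differences between lines were tested as such. The IKZF1 knockout effect differed between H929 and MM1S for 2 members, TAP1 (2.28 ± 0.32, adjusted p = 2.15e-04) and TAP2 (0.83 ± 0.19, adjusted p = 0.00803), both larger in H929, where 15.9% of all genes differed. Both held under every alternative. For HLA-B, HLA-C and TAPBP the H929-minus-MM1S differences were -0.05 (95% interval -0.65 to 0.56), 0.05 (-0.47 to 0.56) and 0.08 (-0.42 to 0.58), and none was called. H929 exceeded OPM2 for 6 members (HLA-B, HLA-C, HLA-F, B2M, TAP1 and TAP2), against 12.7% of all genes, with TAP2 at 1.28 ± 0.19, adjusted p = 0.00119. MM1S exceeded OPM2 for 5 (HLA-B, HLA-C, HLA-E, HLA-F and NLRC5), against 20.8%, led by HLA-F (1.29 ± 0.32, adjusted p = 0.0131). Both counts rest on the OPM2 empty vector pair. The first fell without either H929 empty vector library, H929 knockout a, OPM2 empty vector replicate 1 or either OPM2 knockout library. The second rose without OPM2 empty vector replicate 2 and fell without any other of its 8 libraries. The number of all genes called changed alike, except without OPM2 empty vector replicate 1, where it hardly moved. With untreated OPM2 cells as control and the empty vector pair left out, the member counts were again 6 and 5. There 2695 and 4581 of all genes were called, against 1843 and 3015 in the main fit. TAPBP (0.83, adjusted p = 5.71e-04 for H929 and 0.76, adjusted p = 5.54e-04 for MM1S) took the place of HLA-C.

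Within OPM2, 0 members differed between the IKZF1 and IKZF3 knockouts in edgeR, where 2.6% of all genes did. At an unadjusted p below 0.05 there were 3 (HLA-E, B2M and TAPBP, all lower in the IKZF1 knockout), and DESeq2 and limma-voom also called 0. HLA-E (-0.59, adjusted p = 0.00951) and TAPBP (-0.51, adjusted p = 0.00402) were called when the empty vector libraries, which this comparison does not use, were left out of the shared estimate of spread. In that fit 1351 of all genes were called, against 377 in the main fit. The lenalidomide effect minus the IKZF1 knockout effect also gave 0 called members, against 0.282% of all genes, with 1 (HLA-C) at an unadjusted p below 0.05 and 0 by DESeq2 and limma-voom. Without empty vector replicate 2 some members were called, and so were far more of all genes. Between the 2 controls themselves, empty vector and untreated, 1 member was called (TAP2, 0.36 ± 0.14, adjusted p = 0.0496), against 35.4% of all genes. That call ended under every other scaling, filter and test run, with adjusted p from 0.0510 to 0.342, and without either untreated library. Without empty vector replicate 2 more members were called, as were more of all genes.

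Among companion genes, STAT2, IRF9 and IRF1, which act in interferon responses, rose in H929 and, by less, in MM1S. STAT2 went from 32.4 and 32.2 to 169 and 116 CPM in H929 (2.14 ± 0.17, adjusted p = 1.07e-06) and from 81.2 and 89.4 to 171 and 197 in MM1S (1.11 ± 0.17, adjusted p = 1.83e-04). IRF9, its partner in the interferon response, went from 26.9 and 32.9 to 165 and 123 in H929 (2.26 ± 0.16, adjusted p = 4.09e-07) and from 8.69 and 8.77 to 16.03 and 16.31 in MM1S (0.89 ± 0.18, adjusted p = 0.00193). The knockout libraries of both genes lay above their controls in both lines, and the H929-minus-MM1S difference passed for STAT2 (1.03 ± 0.23, adjusted p = 0.00732) and IRF9 (1.38 ± 0.24, adjusted p = 0.00124). IRF1, an activator of class I promoters, rose in H929 (1.65 ± 0.21, adjusted p = 1.23e-04) and in MM1S (0.69 ± 0.21, adjusted p = 0.0240), with a difference of 0.96 ± 0.30, adjusted p = 0.0396. In OPM2, IRF1 was higher with lenalidomide (0.97 ± 0.24, adjusted p = 0.0192). Against untreated cells it was higher in the IKZF1 knockout (1.19 ± 0.24, adjusted p = 0.00648) and the IKZF3 knockout (1.63 ± 0.24, adjusted p = 6.19e-04). The IKZF1 knockout, at 14.1 and 21.4 CPM, overlapped the empty vector at 14.3 and 11.4, and untreated cells were at 8.41 and 7.09. Against the OPM2 empty vector, IRF9 was higher in the IKZF3 knockout (0.90 ± 0.17, adjusted p = 0.00171), and it was higher against untreated cells too (1.04 ± 0.17, adjusted p = 0.00165). STAT2 was called against the empty vector in the IKZF1 knockout (0.67 ± 0.17, adjusted p = 0.00720) and the IKZF3 knockout (0.71 ± 0.17, adjusted p = 0.00520), but its untreated libraries, at 90.6 and 93.5 CPM, were level with the knockouts, and against them the changes were -0.07 and -0.03 (adjusted p = 0.864 and 0.965). Of the 18 listed regulators, 5 were higher and 0 lower in H929, 4 and 3 in MM1S, 3 and 5 in the OPM2 IKZF1 knockout, 6 and 1 in the IKZF3 knockout, and 1 and 3 with lenalidomide, where 10.5%, 28.3%, 36.3%, 36.9% and 10.4% of all tested genes were called. Against untreated cells, 1 was higher and 5 lower in the OPM2 IKZF1 knockout (7.78% of all genes called), and 2 and 3 in the IKZF3 knockout (8.3%).

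Few of the peptide-cutting genes passed in H929 or MM1S. PSMB8 and PSMB9, inducible proteasome subunits whose genes neighbour TAP1 and TAP2, rose in H929 (1.17 ± 0.21, adjusted p = 0.00184 and 1.37 ± 0.26, adjusted p = 0.00256). In MM1S they were at 0.17 and 0.41 and were not called. The difference between lines passed for PSMB8 (1.01 ± 0.30, adjusted p = 0.0308) and not for PSMB9 (0.96 ± 0.36, adjusted p = 0.0868), and 2 of the 10 listed processing genes differed between the lines in all, against 15.9% of all genes. MM1S had higher ERAP1 (0.67 ± 0.18, adjusted p = 0.0126) and ERAP2 (0.79 ± 0.24, adjusted p = 0.0253), aminopeptidases that trim peptides in the endoplasmic reticulum. In H929, ERAP2 stood at 0.74 ± 0.25, adjusted p = 0.0727, and the difference between the lines was not called for ERAP1 (-0.61 ± 0.26, adjusted p = 0.127) or ERAP2 (-0.05 ± 0.34, adjusted p = 0.980). In the OPM2 knockouts, the calls among these genes rested on the empty vector. Against it, ERAP1 (1.08 in the IKZF1 and 0.88 in the IKZF3 knockout) and LNPEP (1.61 and 1.77), an aminopeptidase of endosomal cross-presentation, were higher. PSME2 (-1.06 and -0.76), a proteasome activator subunit, was lower in both, and PSMB8 (-0.58) and PSMB10 (-0.83) were lower in the IKZF1 knockout. Against untreated cells none of these 8 values passed (adjusted p from 0.177 to 0.932). There ERAP1 was at 0.41 and 0.20, LNPEP at -0.08 and 0.08, and PSME2, with its sign turned, at 0.18 and 0.48. PSMB10 also turned, to 0.27 in the IKZF1 knockout, and PSMB8 was at -0.06. Of the 10 listed processing genes, 3 were higher and 0 lower in H929, 2 and 0 in MM1S, 3 and 4 in the OPM2 IKZF1 knockout, 3 and 1 in the IKZF3 knockout, and 0 with lenalidomide, to be read against the same shares of all genes as the regulators. Of the 7 other loading chaperones, 4 were higher in MM1S (PDIA3 by 0.56, HSPA5 by 0.52, TAPBPL by 0.51 and GANAB by 0.31), where 28.3% of all genes were called. In H929, 1 was higher, the tapasin relative TAPBPL (0.51 ± 0.15, adjusted p = 0.0462), where 10.5% of all genes were called. With lenalidomide 0 were called, against 10.4% of all genes.

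Relatives of the class I heavy chains rose in MM1S. Of 7 tested, 6 were higher there, against 28.3% of all genes called, and 1 in H929, against 10.5%. HLA-G went from 20.8 and 22.6 to 44.9 and 46.2 CPM (1.07 ± 0.18, adjusted p = 4.57e-04), and HLA-H, a class I pseudogene, rose by 1.02 and HLA-J, another, by 1.21. In H929 the same 3 genes were at 0.18, 0.14 and 0.19 and not called, and the difference between lines passed for HLA-G (-0.89 ± 0.27, adjusted p = 0.0335) and HLA-H (-0.88 ± 0.27, adjusted p = 0.0383). These copies resemble each other and the classical genes, and reads may be shared among them. MR1, which presents vitamin metabolites to MAIT cells and is less alike in sequence, rose in MM1S (1.28 ± 0.13, adjusted p = 6.87e-06), H929 (0.76 ± 0.13, adjusted p = 0.00177) and, against the empty vector, the OPM2 IKZF3 knockout (0.70 ± 0.13, adjusted p = 0.00167). Against untreated cells the last value was 0.36 ± 0.13, adjusted p = 0.111.

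**Figure D4:**
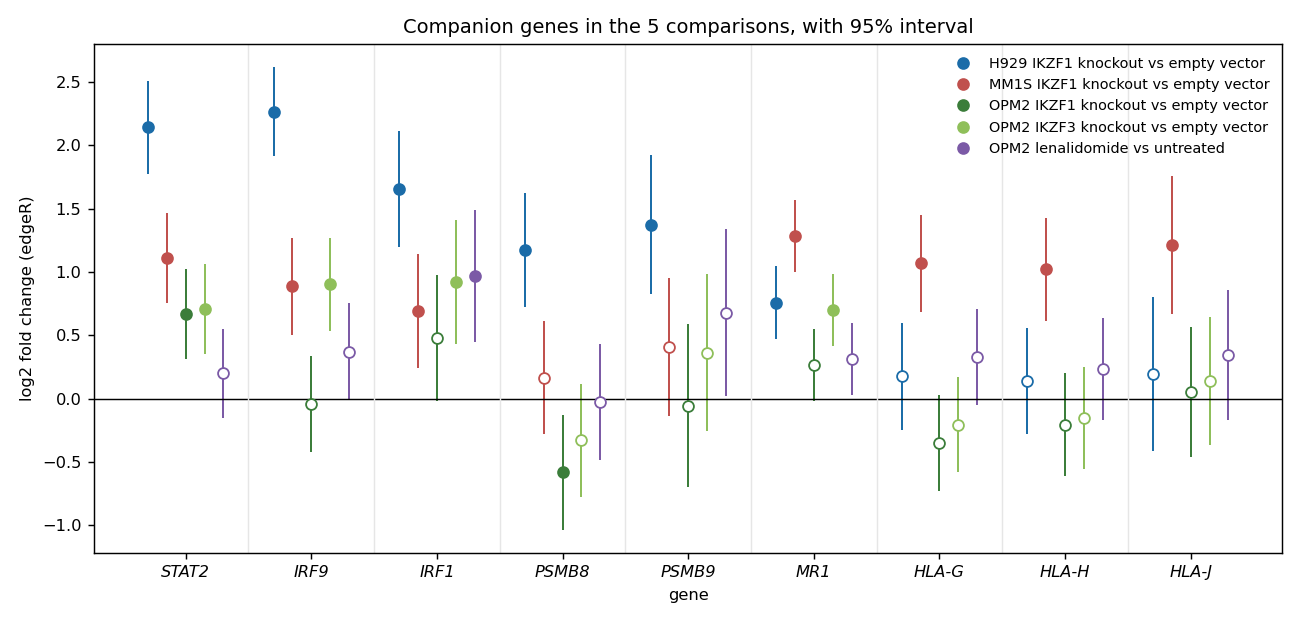
Log2 fold change with 95% interval (edgeR) of 9 companion genes in the same 5 comparisons; filled circles passed an adjusted p of 0.05. PSMB9 passed in H929, and HLA-G, HLA-H and HLA-J in MM1S.

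Levels can be compared between members per length in the authors' deposited table of log2 FPKM, which merges each control group into 1 column. Over its 14 columns B2M ran from 9.66 to 11.002, HLA-C from 8.14 to 9.70, HLA-B from 7.62 to 9.79 and HLA-E from 6.87 to 8.37. TAP1 ran from 4.59 to 8.21, TAPBP from 4.08 to 7.25, TAP2 from 3.62 to 5.32, HLA-F from 2.35 to 5.16 and NLRC5 from -0.32 to 2.72. B2M and the chains HLA-B, HLA-C and HLA-E were thus the most abundant and the transactivator the least. TAP1 and TAPBP had the widest ranges, the first from its H929 knockout value and the second from the gap between OPM2 and MM1S.

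Most members varied together once line levels were removed. After centring each gene on its line's mean, Pearson's r of log2 CPM over the 18 libraries was 0.97 for HLA-B with HLA-C, 0.93 for HLA-B with B2M and 0.92 for HLA-B with NLRC5. The 8 pairs with TAP2 had r from 0.13 to 0.43, and the other 28 pairs from 0.37 to 0.97. Without centring, HLA-B with HLA-C had r = 0.11 and TAPBP with NLRC5 r = -0.82. These are descriptions over libraries that share lines, controls and scaling. By the same uncentred measure, the genes most like each member included HGF (0.95) and IFIT1 (0.94) for TAP1, PARP9 (0.89), INAFM2 and DTX3L for B2M, and PPIC (0.92), TMEM80 and CNDP2 for HLA-B. They were TRPC4AP (0.94), NAGS and LZTS2 for HLA-C, FBXO32 (0.93), SEMA4B and IFFO1 for HLA-E, and KALRN (0.91), USP41 and VANGL2 for HLA-F. For TAP2 they were NDUFS4, PSMB8 and DGAT2 (0.96 each), for TAPBP APOL3, UNC93B1 and CCDC69 (0.98 each), and for NLRC5 PTP4A3 (0.98), ARHGEF17 and HDAC11 (0.97 each).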

How the data were processed

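RNA of sorted live cells was made into libraries with a TruSeq RNA kit, per the labels' protocols. The authors deposited raw counts per Entrez gene, 1 column per library, and a table of log2 FPKM values with merged controls. Subread, featureCounts and limma and the build GRCh38 are named in the submitters' processing notes, which give no version or strand setting here, so overlapping antisense genes cannot be told apart.

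Genes with no symbol (385 genes, 0.0122% to 0.0276% of counts) were left out. Counts were scaled by TMM, filtered with filterByExpr and fitted with edgeR 4.0.16 (R 4.3.3, limma 3.58.1) in 1 robust quasi-likelihood model of 9 groups and 18 libraries, with 9 residual degrees of freedom. Calls needed an adjusted p (Benjamini-Hochberg, 14522 genes) below 0.05, and adjusted p-values are edgeR's where no tool stands beside them. CPM use TMM-scaled library sizes. Fits were tested on simulated data. DESeq2 1.42.0, limma-voom, other scalings and filters, single libraries left out and other controls were the alternatives. The untreated control for companion genes was added after seeing the data. Knockout columns show their group but not which sample they are, and carry the letters a and b.

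All 9 members are named; of each companion list, up to 4 called genes with the smallest p per comparison; per member, the 3 genes with the highest Pearson r. IRF1 and IRF2 in MM1S, CIITA in H929, CD68, PSMB8 in OPM2 and the TAP1 to TAP2 ratio were chosen after their values were seen. So were CD14, S100A9 and, against untreated cells, the OPM2 knockout values of IRF1, IRF2 and CIITA. The members and lists were chosen with earlier results of these data known. Promoters are RefSeq's. For 1 companion gene, values are not reported here.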

Additional observations from a re-analysis of the deposited data

Results flagged for a closer look

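The IKZF1 knockout effect differed between lines, by a test of the difference itself (edgeR, adjusted over all genes), for the members below; each value is a difference of log2 fold changes. Between H929 and MM1S it was 2.28 for TAP1 and 0.83 for TAP2, with both H929 knockout libraries above both controls for each gene. Between H929 and OPM2 it was 1.93 for HLA-F, 1.74 for TAP1, 1.28 for TAP2, 0.95 for HLA-B, 0.78 for HLA-C and 0.74 for B2M. Between MM1S and OPM2 it was 1.29 for HLA-F, 1.17 for HLA-E, 1.02 for NLRC5, 0.99 for HLA-B and 0.73 for HLA-C. The differences from OPM2 rest on its 2 empty vector libraries, which lie far apart. With untreated cells as control and that pair left out, HLA-C no longer passed in either (0.41, adjusted p = 0.0513 from H929 and 0.37, adjusted p = 0.0553 from MM1S), and the other 9 did. TAPBP passed in both (0.83, adjusted p = 5.71e-04 and 0.76, adjusted p = 5.54e-04).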

How the results depend on the processing

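Over 99 member results and 1431 alternatives, 1222 kept the call, 135 lost it, 73 gained one and 1 reversed; in 37 the sign changed while the gene was called in neither. HLA-F, B2M and TAP1 in H929, HLA-B, HLA-E, HLA-F, B2M and NLRC5 in MM1S, TAP1 and TAP2 in H929 minus MM1S, and NLRC5 in MM1S minus OPM2 were called under every alternative run. The reversal was HLA-C in the OPM2 IKZF1 knockout, at 0.32, adjusted p = 0.0290 against untreated cells with the empty vector pair left out, an alternative chosen after seeing the data.

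Leaving out single libraries moved the members called to 3 to 8 in H929 (3 without the first empty vector library or without knockout a, 4 without the other empty vector library), 5 to 7 in MM1S, 0 to 4 in the OPM2 IKZF1 knockout (4, all lower, without empty vector replicate 2; 0 without knockout a), 1 to 7 in the IKZF3 knockout (7, all higher, without empty vector replicate 1) and 0 to 5 with lenalidomide. The ranges were 0 to 4 for empty vector against untreated, 0 to 2 for IKZF1 against IKZF3 knockout, 2 to 4 for H929 minus MM1S, 3 to 9 for H929 minus OPM2, 2 to 8 for MM1S minus OPM2 and 0 to 5 for lenalidomide minus IKZF1 knockout.

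Here the number of all genes called stands in brackets after a member count. Fitting the compared libraries alone gave 0 for the OPM2 IKZF1 (113) and IKZF3 (54) knockouts and 7 for lenalidomide (5566). It gave 0 for empty vector against untreated (0) and 2 for IKZF1 against IKZF3 knockout (356). For H929 minus OPM2 it gave 0 (118) and for MM1S minus OPM2 1 (709). In the same order, the main fit called 5276, 5357, 1506, 5140, 377, 1843 and 3015 of all genes. Untreated cells as control gave 1, NLRC5, in the OPM2 IKZF1 knockout (1130) and 2, B2M and NLRC5, in the IKZF3 knockout (1205). Without a low-count filter, 2 members were called for IKZF1 against IKZF3 knockout (810) and 2 for lenalidomide minus IKZF1 knockout (2302). Upper quartile scaling gave 3 for H929 minus OPM2 (1710). For empty vector against untreated, DESeq2 size factors (5251), upper quartile scaling (5249) and the filter of a CPM of 5 in 2 libraries (5173) each gave 0. The DESeq2 Wald test (5572) and limma-voom (5269) also gave 0 there. Leaving out both OPM2 empty vector libraries gave 2 for IKZF1 against IKZF3 knockout (1351). With untreated cells as control besides, it gave 2 in the OPM2 IKZF1 knockout (3031) and 6 in the IKZF3 knockout (3196), all higher. The cause of these changes was not tested.

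The replicate block could be fitted only for OPM2 empty vector against untreated, since knockout columns carry no replicate number that matches the labels. With the replicate block 0 members and 1705 of all genes were called, against 1 and 5140 in the main fit. With 2 libraries a group, an exact permutation test cannot go below p = 0.333.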

Other observations

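CIITA, the class II relative of NLRC5, rose in H929, as NLRC5 did, and fell with lenalidomide in OPM2. It was at 1.25 and 1.52 CPM in H929 empty vector and 5.23 and 5.32 after IKZF1 knockout (1.92 ± 0.29, adjusted p = 5.04e-04). In OPM2 it was at 3.45 and 2.29 in untreated and 0.523 and 0.974 in lenalidomide cells (-1.996 ± 0.36, adjusted p = 0.00219), while NLRC5 rose there. Against untreated cells CIITA was also lower in the IKZF1 knockout (-1.32 ± 0.32, adjusted p = 0.0185) and not called in the IKZF3 knockout (-0.80 ± 0.29, adjusted p = 0.111). The empty vector libraries were at 1.91 and 2.05. MM1S held the most CIITA, 17.3 and 18.7 with empty vector and 20.2 and 21.3 after knockout (0.21 ± 0.22, adjusted p = 0.540). EZH2, a histone methyltransferase that can silence class I genes, was lower in the MM1S knockout (-0.73 ± 0.12, adjusted p = 4.14e-04) and with lenalidomide in OPM2 (-0.57 ± 0.12, adjusted p = 0.00693). IRF2, a repressor and activator of interferon genes, was lower with lenalidomide (-0.97 ± 0.12, adjusted p = 1.18e-04) and higher in the MM1S knockout (0.45 ± 0.12, adjusted p = 0.00970). IRF2 was also lower in the OPM2 IKZF1 knockout, against the empty vector (-0.49 ± 0.12, adjusted p = 0.00796) and against untreated cells (-1.22 ± 0.12, adjusted p = 4.28e-05). In the IKZF3 knockout it was lower against untreated cells (-0.45 ± 0.12, adjusted p = 0.0317).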
